A study of Mus musculus with 8 samples.

Results

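A set of 33 mouse genes of cholesterol and fatty acid synthesis was followed in serum-stimulated fibroblasts treated with cordycepin. Members were found by gene name among the non-control probes of the array, which gave 49 probes of 55681, and the set makes up 33 of 35715 gene names there. Of these, 32 genes on 48 probes were bright enough to be tested, among 30863 probes tested in all. The remaining gene, Abcg1, which encodes a sterol exporter, was not well above background on any of the 8 arrays and was not tested. Where a gene had several probes it was read on the brightest one.

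The cells were NIH3T3, an immortalised line of mouse embryonic fibroblasts. The cells were grown in 10% serum, and all plates were then kept in 0.5% newborn bovine serum for 24 h. The treatment was 20 µM cordycepin in DMSO, or 0.1% DMSO as control, and 60 min later serum was either added for 30 min or left out. The labels of the no serum plates do not say in themselves that these received DMSO. Cordycepin is an analogue of adenosine whose sugar has no 3′ hydroxyl group, so that RNA chains end where it is built in. The groups were cordycepin plus serum (3 arrays, 90 min of cordycepin), serum (3 arrays) and no serum (2 arrays). Cordycepin in the absence of serum was not analysed here, so its effect was measured only in cells that also received serum. The submitters described the experiment as independent triplicates, although the no serum group held 2 arrays.

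Cholesterol is built from acetyl-CoA through mevalonate, isoprenoid units, squalene and lanosterol. The genes of this route, and many genes of fatty acid synthesis, are switched on by the SREBP transcription factors, which are held in the endoplasmic reticulum by SCAP and INSIG proteins while sterols are plentiful and are cut and released to the nucleus when sterols are scarce. The LXR nuclear receptors sense oxidised sterols and drive the genes of sterol export. In growing fibroblasts the same enzymes supply membrane lipid, and growth factor signals are known to raise SREBP activity.

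Values are given as a normalised level, the log2 of the background-corrected spot signal minus the array's 75th percentile of that quantity, so that 0 is the 75th percentile of the probes. A difference is the difference of 2 group means on this log2 scale. Calls were made with limma at an adjusted p under 0.05, with p-values adjusted over all 30863 probes. Differences were taken between arrays for 1 probe at a time. Since probes differ in brightness, a rank of levels between probes is not a rank of RNA amount. A comparison between groups cannot separate a change in transcription from a change in stability or in the tail by which the RNA was primed for labelling.

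The cells carried the markers of fibroblasts. All 8 fibroblast markers examined were above background, and their summed linear signal, each relative to the array's 75th percentile, ran from 1607 to 2326 over the 8 arrays. Of 11 markers of other cell types 5 were bright enough to test, and Cdh5, Krt18 and Plin1 were above background on no array. Cd68, Cd3e and Pecam1 were well above background on all 8 arrays. Without cordycepin, the mean level of Cd68 was 0.13 with serum and 0.15 with no serum. Those of Cd3e were 0.12 and -0.02, and those of Pecam1 were -2.27 and -2.18. The 75th percentile signal ran from 302.2 to 692 arbitrary units between arrays, 51.1% to 57.1% of probes were above background, no probe was saturated, and arrays of the same group correlated at 0.992 to 0.995 over probes. Among the tested members, 29 of 32 lay above the median level of all tested probes, and the SD of a member over the 8 arrays had a median of 0.19, against 0.24 over all tested probes and 0.20 over mRNA genes.

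Short promoter sequences are shown first, because SREBPs act at known motifs together with NF-Y and Sp1. RefSeq promoter windows, from 250 bases before to 50 bases after the start in build GRCm38.p6, were found for 26 of the 33 members. Both strands were searched for the sterol element TCACNCCAC, the NF-Y box CCAAT, the Sp1 box GGGCGG and the E-box CACGTG. The exact sterol element was found in 1 member, Hmgcs1 (3.85% of members with a window, against 1.44% of all 27025 genes in the table). It begins at position -137 relative to the start and is shown with its flanks, at chr13:119690194-119690242 on the plus strand, with the element in capitals.
Hmgcs1 sterol element: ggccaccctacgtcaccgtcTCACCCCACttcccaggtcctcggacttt

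The NF-Y box was held by 19 of 26 members (73.1%, against 41.1% of all genes), and the Sp1 box by 20 (76.9% against 38.2%). The E-box was held by 5 members (19.2% against 8.09%). Counted by window rather than by gene, which removes the advantage of genes with several starts, the shares were 57.1% against 37.4% for the NF-Y box and 68.6% against 35.7% for the Sp1 box. The following stretches show the last NF-Y box before the start, in capitals, for 5 genes whose serum arrays all lay above the other arrays, as described further on. The capitals read ATTGG where the box is on the opposite strand. They come from Hmgcs1 (chr13:119690286-119690330, plus strand), Idi1 (chr13:8885572-8885605, plus), Lss (chr10:76531523-76531567, plus), Cyp51 (chr5:4104702-4104746, minus) and Fasn (chr11:120824582-120824626, minus), and the box begins 45, 14, 62, 29 and 59 bases before the start, respectively.
Hmgcs1: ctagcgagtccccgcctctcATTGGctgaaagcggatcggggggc
Idi1: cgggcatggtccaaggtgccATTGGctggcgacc
Lss: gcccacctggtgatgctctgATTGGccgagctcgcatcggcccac
Cyp51: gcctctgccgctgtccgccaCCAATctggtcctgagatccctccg
Fasn: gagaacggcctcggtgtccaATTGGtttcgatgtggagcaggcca
A match to these letters is a description of the window, not a bound site. Stard4 shared the pattern of high serum arrays but had no promoter window. Members without that pattern, such as Mvk, Mvd and Srebf2, also held the NF-Y box. Whether the box goes with the pattern was not tested.

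The main comparison asked how the set behaved when cordycepin was present during serum stimulation. Most of it moved little. Nr1h3, the gene of the receptor LXR alpha, rose 1.98-fold. Cyp51, the lanosterol demethylase of cholesterol synthesis, fell to a level 1.77-fold lower, and Fasn, the fatty acid synthase, fell to a level 1.37-fold lower. The other 29 tested members did not pass. The 3 members called were 9.38% of the 32 tested, against 19.4% of all tested probes, 14.4% of 13423 RefSeq mRNA genes on their brightest probe and 11.2% of the 9285 of those genes above the median level. Of all probes 11.7% were higher and 7.71% lower, against 1 and 2 members.

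The difference was at most 0.5 in size for 30 of 32 members. Differences ran from -0.82 to 0.98, 16 were positive and 16 negative, and their median was 0.02, against 0.09 over all tested probes and 0.05 over the mRNA genes. No member passed with a difference of at least 1, where 10.5% of all probes and 3.04% of the brighter mRNA genes did. For 30 of 32 members (93.8%) the 95% interval of the difference lay wholly between -1 and 1, so that a change of 2-fold or more lay outside the interval. The same held for 76.2% of all probes and for 92.9% of the brighter mRNA genes. The exceptions were Nr1h3 and Cyp51. At an unadjusted p under 0.05, 10 members (31.2%) were counted. The share was 31% of all probes, 25.4% of mRNA genes and 22.4% of the brighter mRNA genes.

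**Figure D1:**
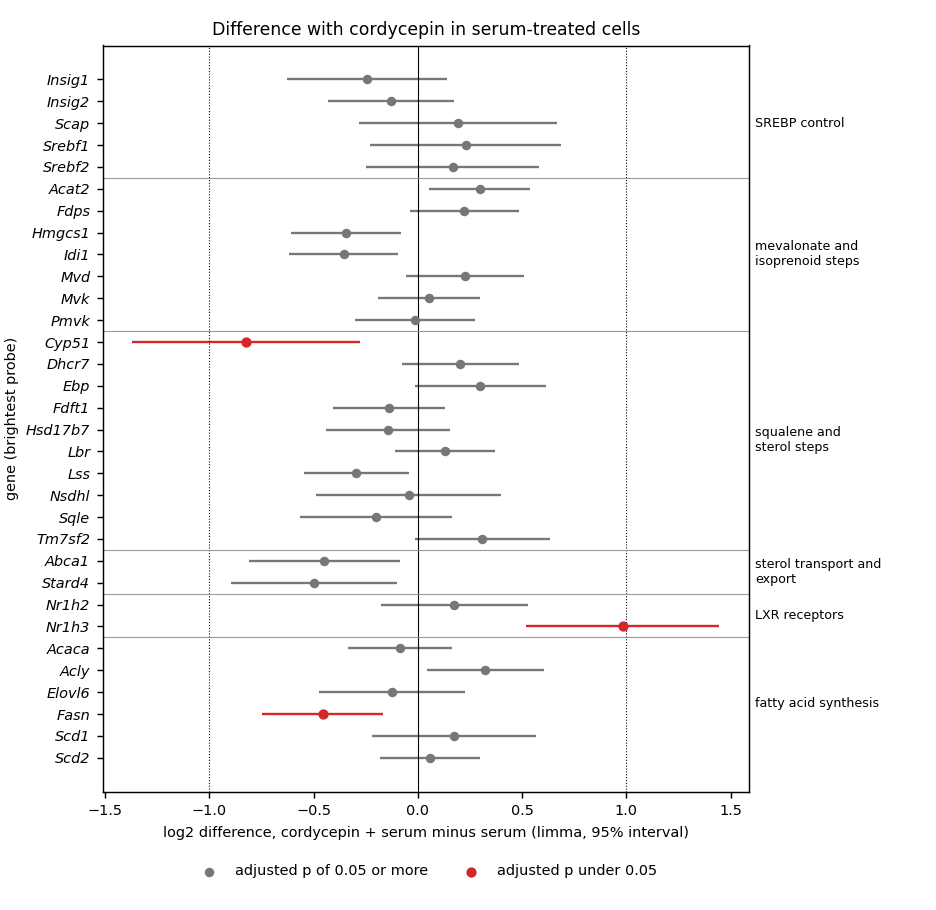
Log2 difference between cordycepin plus serum (3 arrays) and serum (3 arrays) for the 32 tested genes, ordered by role, with the 95% interval from limma as a line. The red points, Nr1h3, Cyp51 and Fasn, have an adjusted p under 0.05, and the intervals of all genes but Nr1h3 and Cyp51 lie between the dotted lines at -1 and 1.

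Among the genes that control SREBP none of 5 passed with cordycepin. Srebf1 and Srebf2, which encode the factors themselves, differed by 0.23 and 0.17 (adjusted p 0.472 and 0.564), and the escort Scap by 0.19 (adjusted p 0.564). Insig1 and Insig2, the retention proteins, differed by -0.24 and -0.13 (adjusted p 0.358 and 0.542). The 95% intervals of the 5 genes together spanned -0.63 to 0.69. A second, dimmer probe of Srebf2 gave 0.56 (adjusted p 0.112), the direction of the first with a larger size.

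In the mevalonate and isoprenoid steps none of 7 genes passed, and their differences split in direction. Hmgcs1, which makes the HMG-CoA that feeds the pathway, differed by -0.34 (SE 0.11, adjusted p 0.0760), and Idi1, the isomerase of the isoprenoid unit, by -0.36 (SE 0.11, adjusted p 0.0654). For both, every cordycepin array lay below every serum array. The dimmer probe of Hmgcs1 gave 0.09 (adjusted p 0.722), and the mean of its probes -0.13 (adjusted p 0.401). On the other side Acat2, the acetoacetyl-CoA thiolase, differed by 0.30 (adjusted p 0.0932), Mvd, the decarboxylase, by 0.23 (adjusted p 0.254) and Fdps, the farnesyl diphosphate synthase, by 0.22 (adjusted p 0.227). For these 3 genes every cordycepin array lay above every serum array. The only Fdps probe is placed at chr10:93242421-93242480 on the plus strand of mm9. Whether it reads that gene alone was not tested. The kinases Mvk and Pmvk differed by 0.05 and -0.01.

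In the squalene and sterol steps 1 of 10 genes passed, Cyp51. Its level stood at 3.32, 3.66 and 3.15 on the serum arrays and at 2.19, 3.07 and 2.39 on the cordycepin plus serum arrays, with 2.91 and 3.05 on the no serum arrays. Every cordycepin array lay below every serum array, but by little for replicate 2, and the no serum arrays fell within the range of the cordycepin arrays. The difference was -0.82 (SE 0.24, 95% interval -1.37 to -0.28, adjusted p 0.0445). Its probe lies at chr5:4081471-4081530 on the minus strand of mm9, the build of the file headers. The call held without cordycepin replicate 2 (-1.09, adjusted p 0.00674) and was lost without any other single array, with differences of -0.64 to -0.94 and adjusted p of 0.0543 to 0.136. It was also lost with the slide row as a block (-0.83, adjusted p 0.0783).

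Lss, the lanosterol synthase that makes the substrate of Cyp51, differed by -0.30 (SE 0.11, adjusted p 0.106), with no overlap between cordycepin and serum arrays. Sqle, the squalene epoxidase, differed by -0.20 and Fdft1, the squalene synthase, by -0.14, both with overlapping arrays. Hsd17b7 and Nsdhl, which act in removing methyl groups from the sterol, differed by -0.14 and -0.04. The values turned positive for the sterol reductases Tm7sf2 (0.31, adjusted p 0.177), Dhcr7 (0.20) and Lbr (0.13) and for the isomerase Ebp (0.30, adjusted p 0.178), with no overlap of arrays for Tm7sf2, Dhcr7 and Ebp. Tm7sf2 had a dimmer probe that did pass.
On that probe the cordycepin arrays stood at 2.34, 2.46 and 2.50, the serum arrays at 2.13, 1.91 and 2.04 and the no serum arrays at 2.19 and 2.10, a difference of 0.41 (adjusted p 0.0333). Both Tm7sf2 probes had all cordycepin arrays above all serum arrays, with mean differences of 0.31 and 0.41. On the brightest probe the arrays nearly met, with the lowest cordycepin array at 4.60 and the highest serum array at 4.59.

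Stard4 encodes a carrier that moves cholesterol between membranes, and Abca1 an exporter driven by LXR. Neither passed with cordycepin on its brightest probe. Stard4 differed by -0.50 on its brightest probe (SE 0.17, adjusted p 0.0869) and by -0.51 on its other probe (adjusted p 0.0716), and the mean of its probes passed at -0.50 (adjusted p 0.0161). Without cordycepin replicate 1, whose level of 3.33 was closest to the serum arrays, it passed at -0.69 (adjusted p 0.0114). Without any other single cordycepin or serum array it did not pass (-0.53 to -0.34, adjusted p 0.134 to 0.203). Abca1 differed by -0.45 (SE 0.16, adjusted p 0.0908), with cordycepin arrays at -3.32, -2.92 and -3.19 and serum arrays at -2.92, -2.56 and -2.60, so that the groups just met. It differed by -0.09 (adjusted p 0.657) after normexp background correction and passed at -0.70 (adjusted p 0.0214) after quantile normalisation. The untested Abcg1 probe read between -7.87 and -7.07 over the 8 arrays.

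Of the LXR receptor genes, Nr1h3 passed, and Nr1h2, the gene of LXR beta, differed by 0.17 (adjusted p 0.474). Nr1h3 stood at -3.33, -3.84 and -3.79 on the cordycepin plus serum arrays, at -4.27, -4.92 and -4.72 on the serum arrays and at -4.10 and -3.98 on the no serum arrays. All cordycepin arrays lay above all others and all serum arrays lay below all others. The difference between cordycepin plus serum and serum was 0.98 (SE 0.20, 95% interval 0.52 to 1.45, adjusted p 0.0100), and it passed without any single array (0.82 to 1.17, adjusted p 0.00513 to 0.0357).

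The probe of Nr1h3 was well above background on 7 of 8 arrays, the exception being 1 serum array. Its second probe gave 0.78 (adjusted p 0.0836). That probe stood at -4.21, -4.62 and -3.49 with cordycepin, at -4.81, -4.91 and -4.94 with serum and at -4.61 and -4.15 without serum, again with no overlap between the cordycepin and serum arrays. The call was lost after quantile normalisation (0.69, adjusted p 0.0590) and after normexp background correction (0.41, adjusted p 0.0918). Of the 11 markers of other cell types, 5 were tested and 2 rose with cordycepin, Cd68 of macrophages by 3.02 (adjusted p 4.8e-05) and Adipoq of fat cells, which was above background on the cordycepin arrays alone (adjusted p 0.00335). Cd3e of T cells and Krt8 of epithelium differed by 0.12 and 0.31 (adjusted p 0.714 and 0.134) and Pecam1 of endothelium by -0.38 (adjusted p 0.0629). Ptprc, the common marker of blood cells, was too dim to test, and the fat marker Plin1 was above background on no array. The summed linear signal of all 11, of which Cd68 made up most with cordycepin, was 9.05 to 11.3 with cordycepin, 2.32 to 2.90 with serum and 2.32 to 2.62 without, each relative to the 75th percentile. The part of other cell types in the Nr1h3 result was not tested.

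Among the 6 fatty acid genes only Fasn passed. It stood at 1.63, 1.73 and 1.47 on the serum arrays, at 1.25, 1.24 and 0.96 with cordycepin plus serum, and at 0.92 and 0.97 with no serum. The cordycepin arrays lay below all serum arrays and reached down to the no serum arrays. The difference was -0.46 (SE 0.13, 95% interval -0.75 to -0.16, adjusted p 0.0382). The probe is at chr11:120667666-120667725 on the minus strand of mm9. The call held without serum replicate 3 (-0.53, adjusted p 0.0475) and was lost without any other single array, at -0.36 to -0.51 and adjusted p of 0.0548 to 0.115. With the slide row as a block it missed the threshold (-0.49, adjusted p 0.0503).

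The genes on either side of fatty acid synthase did not share its value. Acly, which makes cytosolic acetyl-CoA from citrate, differed by 0.32 (SE 0.12, adjusted p 0.109) with all cordycepin arrays above all serum arrays. Acaca, the acetyl-CoA carboxylase, differed by -0.09, the elongase Elovl6 by -0.13 and the desaturases Scd1 and Scd2 by 0.17 and 0.06. The steadiest probe of the set was that of Scd2, between 7.71 and 7.95 on all 8 arrays.

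The second comparison asked what 30 min of serum did to the set in the absence of cordycepin. None of the 32 tested members passed, against 2.33% of all tested probes and 1.37% of mRNA genes. An unadjusted p under 0.05 was found for 4 members (12.5%). It was found for 10.3% of probes, 6.31% of mRNA genes and 4.74% of the brighter mRNA genes. The differences ran from -0.59 to 0.71 with a median of 0.04. The interval lay between -1 and 1 for 29 of 32 members (90.6%), the exceptions being Insig1, Nr1h3 and Cyp51. The same held for 84.2% of probes, 91.8% of mRNA genes and 97.2% of the brighter mRNA genes. For 16 members the difference was at most 0.1 in size. With 2 no serum arrays the interval was wider here than in the first comparison.

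The largest positive values belonged to Insig1 and Fasn. Insig1 stood at 2.61, 2.84 and 2.49 on the serum arrays and at 1.83 and 2.04 on the no serum arrays, a difference of 0.71 (SE 0.19, 95% interval 0.29 to 1.14, adjusted p 0.124). Its cordycepin arrays, at 2.70, 2.17 and 2.34, overlapped the serum arrays and lay above both no serum arrays. Fasn differed by 0.66 between serum and no serum (SE 0.14, adjusted p 0.0601), and passed at 0.63 after normexp background correction (adjusted p 0.0434). Its call also changed at the same difference when only probes above background on all 8 arrays were tested (adjusted p 0.0466). The largest negative value was that of Nr1h3, -0.59 (adjusted p 0.376).

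**Figure D2:**
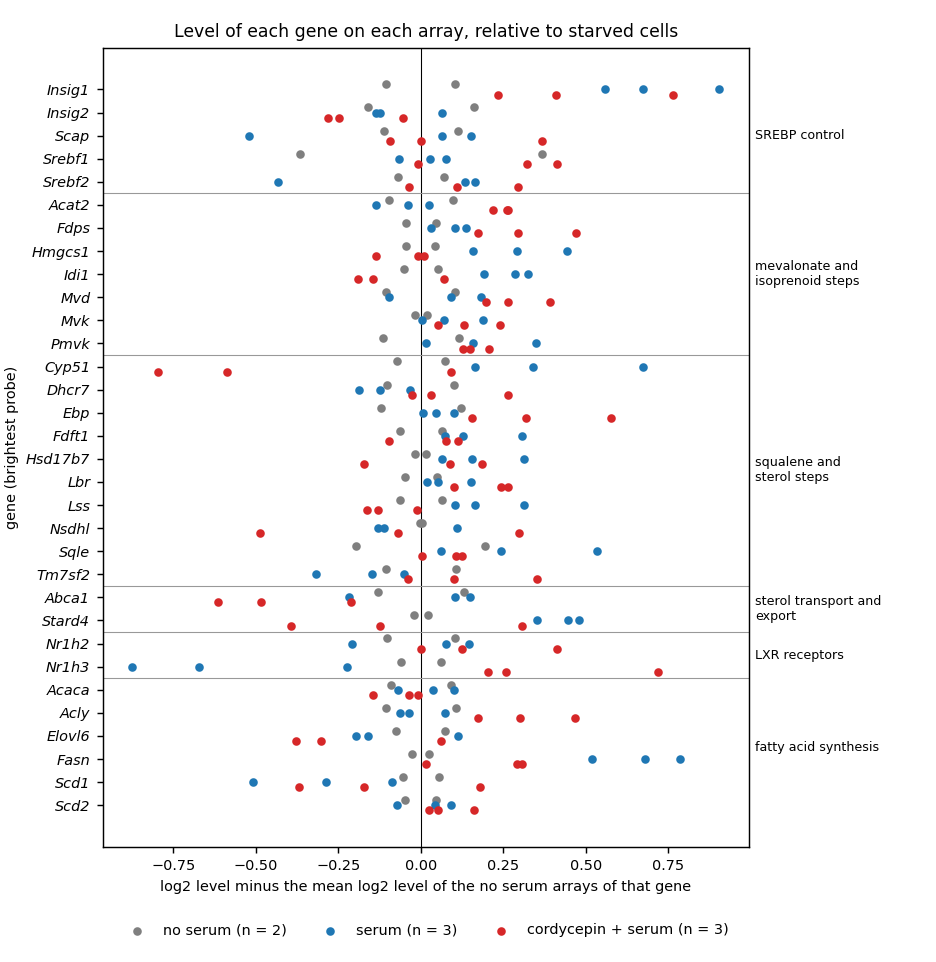
Log2 level of each tested gene on each of the 8 arrays, minus that gene's mean on the no serum arrays (vertical line at 0), by role. After scaling to the 75th percentile, blue serum points stand to the right of the other arrays for Hmgcs1, Idi1, Cyp51, Lss, Stard4 and Fasn, while for most genes the 3 groups lie within 0.5 of 0.

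The arrays of a group were also compared 1 by 1. In 9 members (28.1%) all serum arrays lay above both no serum arrays, against 9.95% of all probes and 10.5% of mRNA genes. In 2 members (6.25%) they lay below, against 13.1% of all probes and 9.25% of mRNA genes. Of the 9 members above, 4 were among the 10 genes of the squalene and sterol steps (Cyp51, Lss, Fdft1 and Hsd17b7). In the cordycepin comparison the arrays did not overlap in 8 members that were higher (25%, against 25% of all probes and 20.4% of mRNA genes). They also did not overlap in 6 that were lower (18.8%, against 13.9% of probes and 15.5% of mRNA genes).

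The 6 members that were lower with cordycepin without overlap were also the members whose serum arrays stood above all 5 other arrays. They were Hmgcs1, Idi1, Lss, Cyp51, Stard4 and Fasn, or 18.8% of the 32 tested, against 4.1% of all probes, 4.75% of mRNA genes and 5.41% of the brighter mRNA genes. Both comparisons share the serum arrays, so a high serum array enters both and the pattern is not counted as 2 results. On these 6 genes the serum level exceeded the no serum level by 0.19 to 0.66 and exceeded the cordycepin plus serum level by 0.30 to 0.82.

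The values of each are as follows. Hmgcs1 stood at 7.06, 7.21 and 6.93 on the serum arrays, against 6.76, 6.78 and 6.63 with cordycepin and 6.73 and 6.81 without serum. Idi1 stood at 5.81, 5.68 and 5.77, against 5.30, 5.56 and 5.34 with cordycepin and 5.44 and 5.54 without serum. In both genes the cordycepin arrays overlapped the no serum arrays.
The other two showed the same order of groups. For Lss the serum arrays read 3.07, 3.28 and 3.13, those with cordycepin 2.81, 2.84 and 2.96, and those without serum 3.03 and 2.91. For Stard4 the serum arrays read 3.50, 3.37 and 3.47, those with cordycepin 3.33, 2.63 and 2.90, and those without serum 3.00 and 3.04. The gap between the lowest serum array and the highest other array was under 0.1 for Lss, Stard4 and Cyp51.

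**Figure D3:**
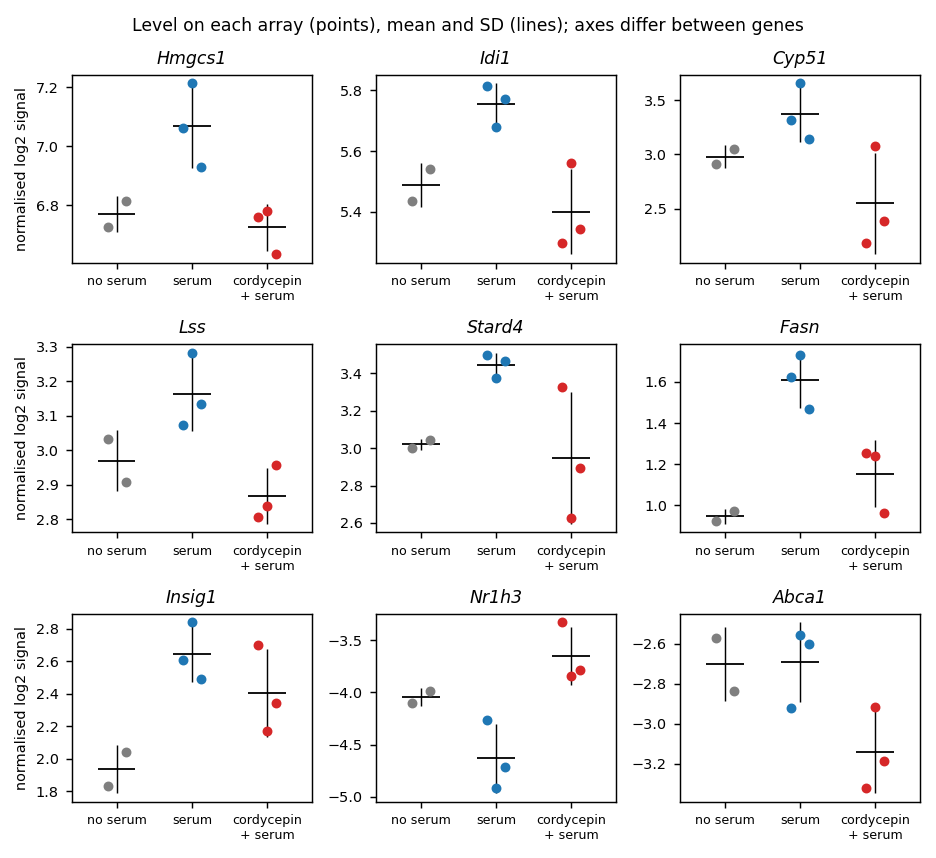
Normalised log2 level (y axis, a different range for each gene) on each array for 9 genes in the no serum (2 arrays), serum (3) and cordycepin plus serum (3) groups, with the mean as a horizontal line and the SD as a vertical line. The serum arrays are the highest for Hmgcs1, Idi1, Cyp51, Lss, Stard4 and Fasn, while Nr1h3 is lowest with serum.

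The pattern depended on how the arrays were scaled. It was found in 5 members after quantile normalisation, in 7 after normexp background correction, and in 5 when all probes of a gene were averaged. After centring each array on 8 spike-in probes it was found in 0 members. That centring adds 1 constant per array to all probes, moved the median of all probes to -0.36 between serum and no serum, and raised the SE of the difference with cordycepin to 0.53 for every member. Under it serum minus no serum was 0.31 for Fasn, 0.07 for Stard4 and 0.04 for Cyp51, and -0.05 for Hmgcs1, -0.08 for Idi1 and -0.16 for Lss, while the difference with cordycepin stayed negative for all 6 (-0.88 to -0.36). None of these 12 values passed.

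**Figure D4:**
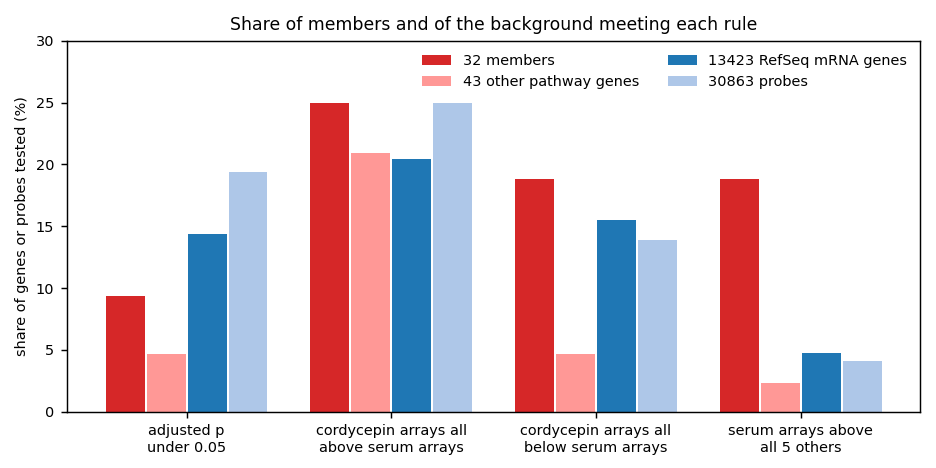
Share of genes or probes (y axis, percent) that met each of 4 rules, for the 32 members, 43 other pathway genes, 13423 RefSeq mRNA genes and 30863 probes. The share called was 9.38% of members, 14.4% of mRNA genes and 19.4% of probes. The share with serum arrays above all 5 others was 18.8% of members, 4.75% of mRNA genes and 4.1% of probes.

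The third comparison set cordycepin plus serum against no serum, so that both agents differed. None of the 32 members passed, against 15.2% of all tested probes and 11% of mRNA genes. An unadjusted p under 0.05 was found for 4 members (12.5%). It was found for 26.7% of probes, 21.3% of mRNA genes and 17.6% of the brighter mRNA genes. Differences ran from -0.44 to 0.47 with a median of 0.09. The interval lay between -1 and 1 for 31 of 32 members (96.9%), all but Cyp51. That share was 74.7% of probes, 84.3% of mRNA genes and 92.6% of the brighter mRNA genes. In 10 members all cordycepin arrays lay above both no serum arrays (31.2%, against 27.8% of probes and 23.9% of mRNA genes). In 1, Abca1, all lay below (3.12%, against 16.5% of probes and 16.5% of mRNA genes). Of the 7 genes of the mevalonate and isoprenoid steps 5 were among the 10, Acat2, Fdps, Mvd, Mvk and Pmvk. The dimmer probe of Hmgcs1 did pass here, at 0.62 (adjusted p 0.0390), with cordycepin arrays at -2.83, -3.09 and -2.68, serum arrays at -3.14, -2.96 and -2.77 and no serum arrays at -3.47 and -3.50. On the brightest Hmgcs1 probe the difference was -0.05, so the 2 probes of this gene did not give the same picture. On the dim probe the cordycepin arrays overlapped the serum arrays.

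In all, 14 members had several tested probes. Their differences with cordycepin spread by a median of 0.12 and at most 0.43 within a gene, and the call differed between probes for Nr1h3 and Tm7sf2 alone. The other probes of Mvk and Insig2 gave 0.01 and -0.06, and the 4 probes of Acaca gave -0.34 to -0.08. Some Acaca probes are placed on chr11 and others on chr12. The brightest Fdft1 probe is placed at chr14:19364899-19364958 on the plus strand, and its other probe at chr14:63764562-63764621 on the minus strand. Whether these probes read 1 locus each was not tested.

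A further 44 genes of the same pathways that are no members were read in the same way, of which 43 were bright enough to be tested. With cordycepin 2 passed (4.65%, against 19.4% of all probes, 14.4% of mRNA genes and 11.2% of the brighter mRNA genes). Rxra, the retinoid receptor that pairs with LXR, rose by 0.50 (SE 0.13, adjusted p 0.0354), from -1.97, -1.57 and -1.58 on the serum arrays to -1.19, -1.25 and -1.18. Its other probe gave 0.11 (adjusted p 0.665). Rnf139, a ubiquitin ligase that binds INSIG, fell by 0.34 (SE 0.10, adjusted p 0.0441), from 2.14, 2.03 and 2.07 to 1.68, 1.78 and 1.77. Neither group of arrays overlapped the other for these 2 genes. The call of Rxra held without serum replicate 2 (0.56, adjusted p 0.0424) and was lost without any other single array (0.36 to 0.56, adjusted p 0.0507 to 0.108), and that of Rnf139 was lost without any single array (-0.36 to -0.31, adjusted p 0.0682 to 0.162). In the other comparisons none of the 43 passed, and their unadjusted p was under 0.05 in 1 gene (2.33%) for serum and in 3 genes (6.98%) for cordycepin plus serum against no serum.

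The pattern of high serum arrays was seen in 1 of the 43 other genes (2.33%, against 4.1% of all probes and 4.75% of mRNA genes). This was Sc5d, the sterol desaturase that acts late in cholesterol synthesis. It stood at 4.26, 4.08 and 4.04 with serum, at 3.81, 3.78 and 3.47 with cordycepin and at 3.78 and 3.97 without serum, a difference with cordycepin of -0.44 (SE 0.13, adjusted p 0.0567). Msmo1, the sterol methyl oxidase that acts after Cyp51, differed by -0.13 with cordycepin and 0.34 with serum (adjusted p 0.534 and 0.465). The 16 other fatty acid and lipid genes ranged from -0.11 to 0.49 with cordycepin, none of them passing, with Acacb, the mitochondrial carboxylase, at the upper end (0.49, adjusted p 0.116).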

How the data were processed

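The deposited files held the scanner output of 8 one-colour Agilent mouse arrays as intensity per spot. Per the file headers, the authors extracted them with Feature Extraction 10.7.3.1, which subtracts background to give a processed signal, and probe positions refer to mm9. RNA was labelled with Cy3 after linear amplification that starts from the poly(A) tail, so the signal is of polyadenylated RNA; whether tail length affected it was not tested.

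Spots of 1 probe were averaged, without control spots. The log2 of the deposited processed signal, minus each array's 75th percentile, was fitted in R 4.3.3 with limma 3.58.1 over all 8 arrays (lmFit and eBayes, 1 mean per group, two-sided, Benjamini-Hochberg over 30863 probes). A probe was tested if all arrays of some group had it well above background. The fit was tested on simulated data with planted differences larger than those of any member. That run does not bear on differences as small as theirs. Groups came from the sample titles. The members, the other pathway genes, the markers (8 fibroblast, 11 of other cell types) and the motifs were chosen with earlier results of these data known. Per-array values are printed for members that passed, whose probes differed in call, or that are described in the text; the last were chosen after their values were seen. The number of arrays limits the precision, and p-values measure the spread between these arrays. Alternatives were other normalisations, background correction, filters, probe averaging, slide row and replicate blocks, the 2 groups alone and leaving out each array. RefSeq symbols matched the array accession for 33 of 33 members.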

Additional observations from a re-analysis of the deposited data

How the results depend on the processing

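No member or other pathway gene that passed changed direction under any alternative run. With cordycepin against serum, 1 member was higher and 2 were lower. Of all probes 19.4% were called in either direction in the main run. That share was 20.9% after quantile normalisation, 15.6% after normexp background correction and 6.04% after spike-in centring. With the slide row as a block 5204 probes were called, against 5993 in the main run. The lower members numbered 5 after quantile normalisation and 5 after normexp background correction, which called Hmgcs1 (-0.47 and -0.37) and Idi1 (-0.43 and -0.40) in both, Abca1 (-0.70, but -0.09 in the second) in the first and Stard4 (-0.52) in the second. Averaging probes gave 3, adding Stard4, while Hmgcs1 shrank to -0.13. They numbered 0 after spike-in centring (SE 0.53 for every member), with no filter on dim probes, with a minimum difference of 1, with the slide row as a block and with only the arrays of the 2 groups; leaving out each array gave 0 to 2. The higher members numbered 0 after quantile normalisation, spike-in centring, normexp, a filter of all 8 arrays (which leaves Nr1h3 out) and a minimum difference of 1. Of other pathway genes 1 was higher and 1 lower. The higher count was 0 after quantile normalisation, spike-in centring, no filter, a minimum difference of 1, averaging of probes and the 2 groups alone, and 0 to 1 without each array. The lower count was 2 after quantile normalisation and after normexp, 0 after spike-in centring, no filter, a minimum difference of 1, the slide row and the 2 groups alone, and 0 without each array. Between serum and no serum 1 member, Fasn, was higher after normexp and under the filter of all 8 arrays. Between cordycepin plus serum and no serum 0 to 1 other pathway genes were higher without each array. Members with the highest serum arrays numbered 6, and 0 after spike-in centring, an alternative chosen after seeing the data like all those for this count. The cause of these changes was not tested. Replicate numbers were shared between groups. The deviations of same-numbered cordycepin and serum arrays from their group means correlated at -0.00027, -0.17 and 0.14. The arrays numbered 2 lay in different slide rows and the others in the same row, so this check cannot separate number from row. The numbers were not taken as pairs in the main run, and were used as a block in an alternative. Cordycepin and serum arrays in the same slide row correlated at -0.00027 to 0.32, and those in different rows at -0.32 to 0.03. In slide row 1 lay cordycepin replicates 1 and 2, serum replicate 1 and no serum replicate 1. The other arrays lay in row 2, so the groups were not balanced over rows. With the replicate number as a block the members gave 1 higher and 2 lower as before, the other pathway genes 0 and 0, and the probes called with cordycepin went from 5993 to 5523. Dim probes such as that of Nr1h3 are limited by their signal over background, and the 2 no serum arrays limit every comparison that uses them.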
